A study of Mus musculus with 4 samples.

Results

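The genes described here mark the endothelium, the cell layer that lines blood vessels, and were taken as the 10 rows of the deposited gene table named Pecam1, Cdh5, Esam, Cldn5, Kdr, Flt1, Tek, Tie1, Plvap and Vwf, out of 22863 rows. All 10 had a value of at least 10 in every sample and were among the 17784 genes tested. The samples were 4 pools of eyes from C3H/f+/+ mice, a melatonin-producing strain with intact photoreceptors, since it carries the wild-type allele of Pde6b. The 2 subjective day pools came from mice kept in darkness for 18 hours and taken at circadian time 6, although another passage of the study gives a longer time in darkness. The 2 objective day pools came from mice that had seen morning light, were then dark-adapted for 1 hour and were taken at zeitgeber time 6. Every pool held 4 eyes of 1 female and 1 male mouse, the animals had been raised under 12 hours of light and 12 hours of darkness and were matched for an age that was not stated for the RNA-seq, and the front of the eye with the lens had been cut away so that retina, pigment epithelium, choroid and the back of the sclera remained. No agent or engineered allele distinguished the groups.

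The mouse retina is fed by a pair of vascular beds. The vessels inside the retina form the inner blood-retina barrier, in which tight junctions seal neighbouring endothelial cells, whereas the choriocapillaris behind the pigment epithelium has fenestrated endothelium that lets plasma proteins through. VEGF, made in the eye by neural, glial and pigment epithelial cells, maintains both beds through receptors on the endothelium, and the angiopoietin receptors of the Tie family control how stable the vessels are. RNA of all these cells was sequenced together, so fewer endothelial cells and less RNA per endothelial cell cannot be told apart in any value below.

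Each value is a gene count after adjustment by the authors to a shared library size, so the sum over genes, 33278417 to 35236783 per sample, reflects that adjustment and the sequencing depth is unknown. Fold changes are objective day over subjective day on a log2(value + 1) scale, a scale that understates the change of low genes, and adjusted p-values are from limma across all tested genes. An exact permutation test of 2 samples against 2 cannot reach a two-sided p below 0.333, so each call rests on the spread that limma shares between genes. Of all tested genes, 8.51% were called at an adjusted p under 0.05, with 1.06% called higher and 7.45% called lower in objective day. The fold change across all genes followed the GC content of the transcript (Spearman's rho 0.58 over 17536 genes, none of them an independent replicate), and so each endothelial gene is also given with that trend removed from every sample.

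Cldn5 was the 1 of the 10 endothelial genes that passed the test, and it was higher in objective day by 43.6%. The gene for the fenestral diaphragm protein, Plvap, was higher by 35.5% and lay just outside the threshold. The remaining 8 genes did not pass, with estimates that ran from -9.35% for Kdr to 22.2% for Tie1. The median log2 fold change of the 10 genes was 0.16, beside 0.015 for all genes tested. The conditions did not overlap in 6 of the 10 genes, where 56.1% of all tested genes showed no overlap. In 5 of them the objective day values were the higher (27.9% of all tested genes) and in 1, Kdr, the lower (28.2%). At an unadjusted p under 0.05 the genes Cldn5, Plvap and Tie1 were counted, or 3 of 10, where the share among all genes was 25.4%.

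**Figure D1:**
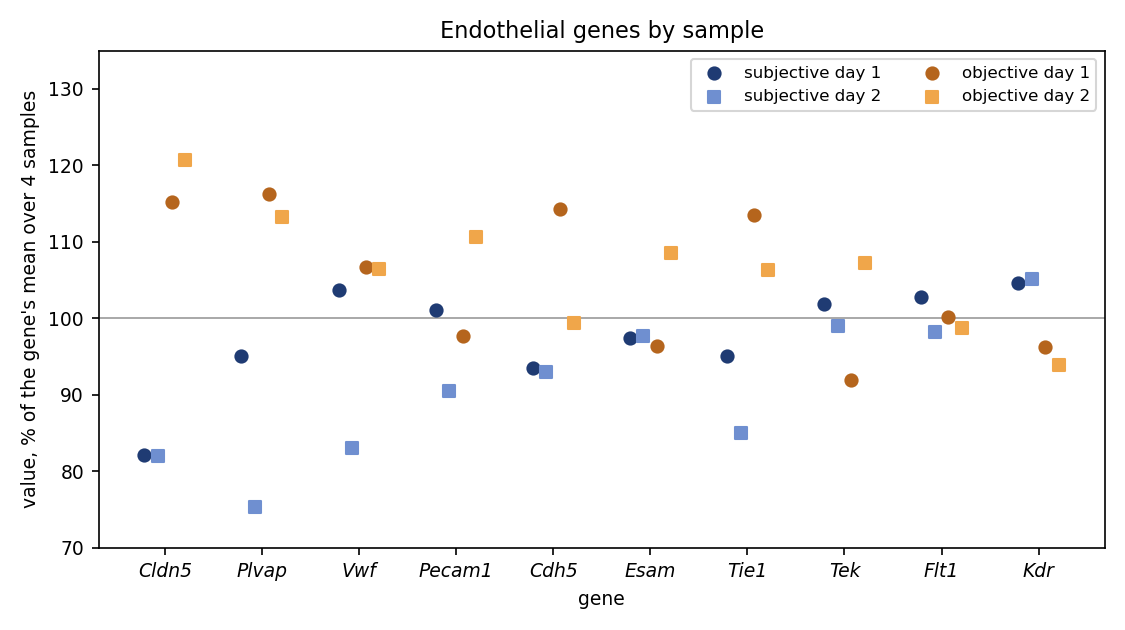
Values of the 10 endothelial genes in each of the 4 samples, as a percentage of that gene's mean over the samples (vertical axis), with subjective day in blue and objective day in orange, and each point 1 pooled sample. The objective day points of Cldn5, Plvap, Vwf, Cdh5 and Tie1 lie above the subjective day points, those of Kdr lie below, and those of Pecam1, Esam, Tek and Flt1 overlap.

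The start regions of Cldn5, Kdr and Flt1 are shown because they are those of the gene with the highest estimate, the gene with the lowest and one with an estimate near 0. The sequences are the 250 bases before the annotated start, taken from RefSeq on GRCm38.p6 and read 5′ to 3′ on the strand of the gene. RefSeq entries were found for 5 of the 10 genes, the others being Tie1 and Tek. The RefSeq starts of Tie1 and Kdr lie inside the genes as GENCODE places them, for Kdr by a few bases and for Tie1 by most of the window, and the Tie1 window is therefore not shown. Capitals mark the letters AGGAAG on either strand, a core that transcription factors of the ETS family, such as Erg and Fli1 of endothelial cells, are known to bind.
Cldn5, chr16:18776597-18776846, plus strand: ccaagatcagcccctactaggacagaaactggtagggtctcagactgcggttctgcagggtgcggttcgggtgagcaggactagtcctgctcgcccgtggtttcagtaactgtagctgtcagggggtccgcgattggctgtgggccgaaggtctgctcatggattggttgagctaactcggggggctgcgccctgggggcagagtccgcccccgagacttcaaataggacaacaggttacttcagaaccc
Kdr, chr5:75978456-75978705, minus strand: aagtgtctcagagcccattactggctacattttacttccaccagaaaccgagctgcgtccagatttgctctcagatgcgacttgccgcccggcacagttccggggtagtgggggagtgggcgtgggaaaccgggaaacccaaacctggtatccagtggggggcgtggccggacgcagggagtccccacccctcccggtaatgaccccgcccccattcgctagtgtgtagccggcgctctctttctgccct
Flt1, chr5:147726012-147726261, minus strand: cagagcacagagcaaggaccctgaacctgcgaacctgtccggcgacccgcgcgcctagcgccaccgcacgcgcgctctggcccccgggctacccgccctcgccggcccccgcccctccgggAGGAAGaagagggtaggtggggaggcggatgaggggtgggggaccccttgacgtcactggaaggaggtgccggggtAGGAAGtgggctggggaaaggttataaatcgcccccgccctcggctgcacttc
The letters AGGAAG occurred in 2 of the 5 windows, those of Flt1 and Tie1, and in 29.5% of the 32851 windows of the same length in the table. The windows of Cldn5 and Kdr, at the ends of the range of fold changes, held 0 matches each. The clock-factor E-box CACGTG was in 0 of the 5 windows and in 6.02% of all. The GC content of the windows was 59.6% for Cldn5, 60.4% for Tie1, 61.6% for Kdr, 70.4% for Flt1 and 51.2% for Tek, with a median of 52.4% over all windows.

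Claudin 5, the product of Cldn5 (ENSMUSG00000041378, chromosome 16 of GRCm38, 18776847 to 18778262), forms the tight junction strands of barrier endothelium in retina and brain. It was at 271 and 270 in subjective day and at 380 and 398 in objective day. The conditions did not overlap, and the samples of a single condition lay within 4.69% of each other. The log2 fold change was 0.52 (SE 0.098, 95% interval 0.29 to 0.75, adjusted p = 0.0207), higher than 97.8% of the genes tested. The Cldn5 transcript has a GC content of 60.5%, where the trend over all genes stood at 0.15, and with the trend removed the log2 fold change was 0.38 (adjusted p = 0.141). The call was also lost without objective day replicate 1 (0.55, adjusted p = 0.0893) or replicate 2 (0.49, adjusted p = 0.138), and when a single variance prior was used for all genes (adjusted p = 0.126).

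Plvap (ENSMUSG00000034845, chromosome 8, 71497765 to 71511752) encodes the protein that spans the fenestrae of the choriocapillaris and is normally absent from mature barrier vessels. It was measured at 1106 and 877 in subjective day and at 1353 and 1318 in objective day. The objective day samples were close to each other and the subjective day samples were not, differing by 26.1%. The log2 fold change was 0.44 (SE 0.11, 95% interval 0.18 to 0.69, adjusted p = 0.0522). Its size depended on the subjective day sample kept: without replicate 1 it was 0.61 (adjusted p = 0.00147), past the threshold, and without replicate 2 it was 0.27 (adjusted p = 0.0742). Rescaling the samples by their median ratio brought it just past the threshold (0.43, adjusted p = 0.0465). With the GC trend removed it was 0.29 (adjusted p = 0.177), from a transcript with a GC content of 60.6%.

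Because Plvap marks fenestrated and Cldn5 barrier vessels, their ratio was compared within each sample. The log2 difference Plvap minus Cldn5 was 2.03 and 1.69 for subjective day, against 1.83 and 1.73 for objective day. The objective day values lay between those of subjective day, so that the mean changed by -0.084 (exact permutation test, two-sided p = 1). With 2 samples a condition this test could not have reached the threshold for any difference. The change in the mean ran from -0.25 to 0.083 with each sample left out. Against the mean of 4 barrier genes (Cldn5, Mfsd2a, Slco1c1 and Abcb1a) it turned positive. Mfsd2a, Slco1c1 and Abcb1a had log2 fold changes of -0.26, 0.24 and -0.041, and none passed (limma adjusted p = 0.242, 0.226 and 0.826). Cldn5 alone therefore does not stand for the barrier genes.

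None of the 3 junctional adhesion genes passed the test. Pecam1 (ENSMUSG00000020717, chromosome 11, 106654217 to 106750628) encodes CD31, an adhesion molecule of endothelial contacts that platelets and leukocytes also carry. Its values of 583 and 522 in subjective day overlapped with 564 and 639 in objective day, and the log2 fold change was 0.12 (SE 0.10, adjusted p = 0.496), or 0.076 with the GC trend removed. VE-cadherin, which holds endothelial cells together at adherens junctions, is encoded by Cdh5 (ENSMUSG00000031871, chromosome 8, 104101625 to 104144511). Cdh5 was at 587 and 584 in subjective day and at 718 and 624 in objective day, without overlap between the conditions. Its log2 fold change was 0.19 (SE 0.093, adjusted p = 0.244), or 0.11 with the GC trend removed. Esam (ENSMUSG00000001946, chromosome 9, 37528078 to 37538319), an immunoglobulin-type adhesion molecule of endothelial tight junctions and platelets, was at 422 and 423 in subjective day and at 418 and 471 in objective day. The lowest and the highest Esam values were thus both from objective day, and the log2 fold change was 0.068 (SE 0.097, adjusted p = 0.71), or -0.036 with the GC trend removed.

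Kdr (ENSMUSG00000062960, chromosome 5, 75932827 to 75978458) encodes VEGFR2, the main signalling receptor for VEGF-A, and besides endothelium it is known to be expressed by retinal neurons. It was the only one of the 10 genes in which both objective day samples, at 10927 and 10653, lay below both subjective day samples, at 11869 and 11935. The gap between the conditions exceeded the spread within them, but the log2 fold change of -0.14 (SE 0.061, 95% interval -0.29 to 0.0024, adjusted p = 0.204) did not pass the test. With the GC trend removed it was -0.17 (adjusted p = 0.224). Flt1 (ENSMUSG00000029648, chromosome 5, 147561604 to 147726011) encodes VEGFR1, which binds VEGF-A tightly and, in its soluble form, acts as a trap for it. It was at 4294 and 4104 in subjective day and at 4188 and 4128 in objective day, so the objective day samples fell inside the range of subjective day. The log2 fold change was -0.014 (SE 0.059), with a 95% interval of -0.15 to 0.12, and -0.066 with the GC trend removed. One value per gene was deposited, so membrane-bound and soluble forms of Flt1 were not separated here.

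The angiopoietin receptor Tie2 is encoded by Tek (ENSMUSG00000006386, chromosome 4, 94739289 to 94874976). Tek stood at 451 and 439 in subjective day and at 407 and 475 in objective day, with a log2 fold change of -0.017 (SE 0.10, 95% interval -0.26 to 0.23, adjusted p = 0.941), or 0.026 with the GC trend removed. Tie1 (ENSMUSG00000033191, chromosome 4, 118471191 to 118490061) encodes the partner receptor that modulates Tie2. Its values of 409 and 366 in subjective day lay below 489 and 458 in objective day, and the log2 fold change was 0.29 (SE 0.10, 95% interval 0.055 to 0.52, adjusted p = 0.125). After removal of the GC trend Tie1 stood at 0.16 (adjusted p = 0.48).

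Vwf (ENSMUSG00000001930, chromosome 6, 125546774 to 125686679) encodes von Willebrand factor, which endothelial cells store and release to bind platelets. It was measured at 994 and 796 in subjective day and at 1023 and 1020 in objective day. Subjective day replicate 2 stood apart from the other 3 samples for this gene. The log2 fold change was 0.20 (SE 0.11, adjusted p = 0.293), or 0.074 with the GC trend removed, and it ran from 0.040 without that sample to 0.36 (adjusted p = 0.022) without subjective day replicate 1. Subjective day replicate 2 gave the lowest value for 7 of the 10 genes, namely Vwf, Plvap, Pecam1, Tie1, Flt1, Cdh5 and Cldn5.

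**Figure D2:**
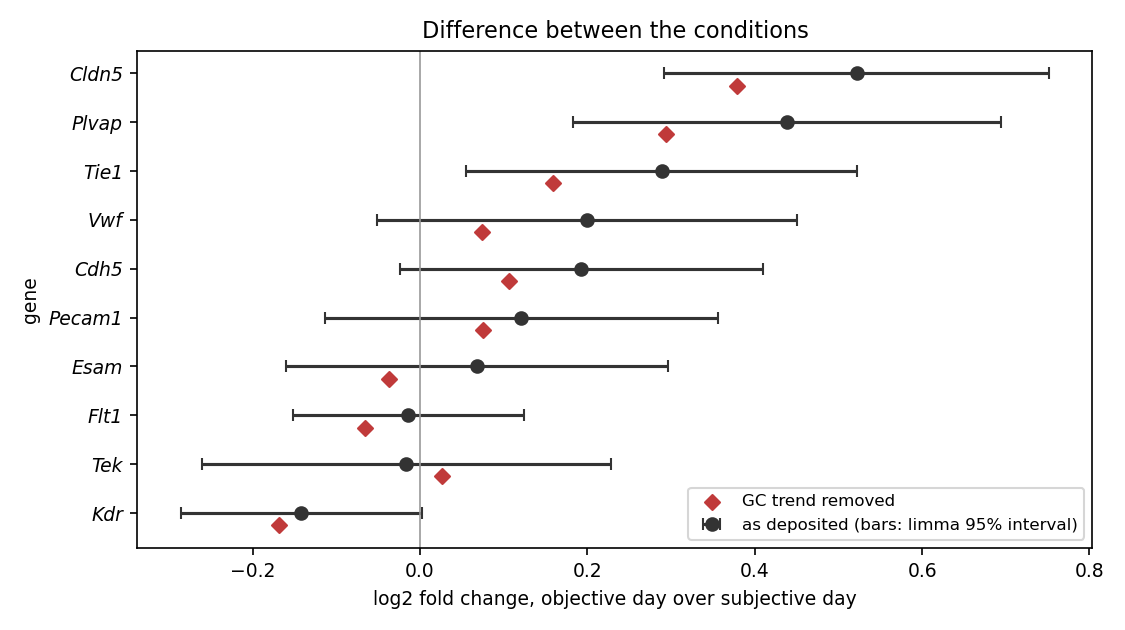
Log2 fold change of each endothelial gene, objective day over subjective day (horizontal axis), with black points for the values as deposited, bars for the limma 95% interval and red diamonds for the value after each sample's GC trend was removed. The intervals of Cldn5, Plvap and Tie1 lie above 0, and removing the trend moved Cldn5 from 0.52 to 0.38 and Plvap from 0.44 to 0.29.

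The order of the fold changes among the 10 genes went with the GC content of their transcripts. The 5 genes of lower GC content, Tek, Kdr, Pecam1, Flt1 and Cdh5, lay between 47.1% and 52.2% GC and had log2 fold changes from -0.14 to 0.19, with a median of -0.014. The 5 genes of higher GC content, Esam, Vwf, Tie1, Cldn5 and Plvap, lay between 53.7% and 60.6% GC and had log2 fold changes from 0.068 to 0.52, with a median of 0.29. With the trend removed the median of the 10 genes was 0.075 and 0 of them passed the test, with 3 at an unadjusted p under 0.05. The part of GC content in the fold changes beyond this correction was not tested.

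**Figure D3:**
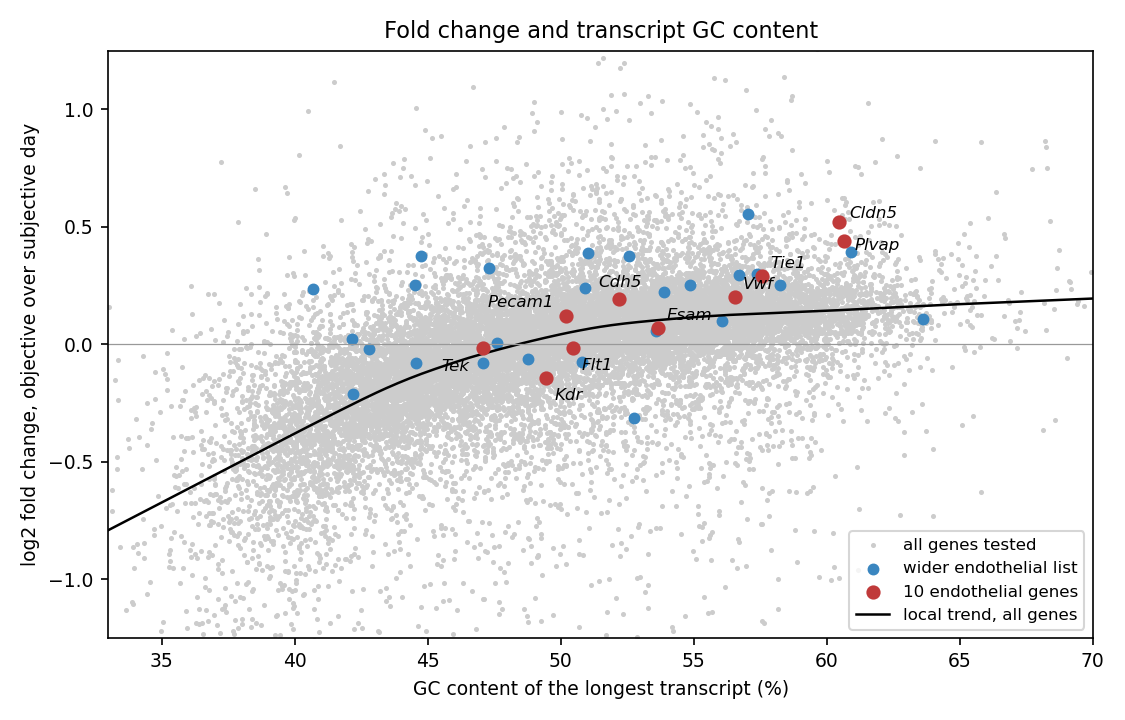
Log2 fold change, objective day over subjective day, against the GC content of the longest transcript in percent, for all genes tested (grey), the wider endothelial list (blue) and the 10 endothelial genes (red, named), with the local trend over all genes as a black line; genes outside the axis limits are not drawn. Cldn5 and Plvap lie above the line at the right, and Kdr lies below it.

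Levels of different genes were compared per length, as parts per 1e+06 of the sample total and per kilobase of the longest GENCODE transcript. Kdr had the highest level, between 52.8 and 57.8 in the 4 samples, and Tek the lowest of the 10 by its mean, between 2.51 and 3.07. The mean level of Kdr was 12.2 times and that of Flt1 3.85 times the level of Cdh5. Retinal neurons are also known to express Kdr, so its level cannot be assigned to endothelium alone. Flt1 (17.1 to 17.99) and Plvap (12.7 to 19.9) overlapped in their ranges, and so did the neighbouring pairs Cldn5 and Esam, Pecam1 and Cdh5, Vwf and Tie1, and Tie1 and Tek. With the mean length of a gene's transcripts in place of the longest, Kdr at 75.0 and Flt1 at 40.4 remained the highest, Esam rose to 16.6 and Vwf to 10.4, so that the order of the middle ranks depends on which transcripts are expressed. Summed over the 10 genes, the level per length was 120 and 116 for subjective day and 123 and 128 for objective day. Without the VEGF receptor genes Kdr and Flt1, the sum was 45.3 and 41.0 for subjective day and 52.6 and 56.0 for objective day. The share of Kdr and Flt1 in the sum was 62.2% and 64.6% for subjective day and 57.2% and 56.3% for objective day, without overlap. Both differences follow from the fold changes already given, with log2 estimates of -0.14 for Kdr and -0.014 for Flt1, and are not separate results. The sums were not taken with the GC trend removed.

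**Figure D4:**
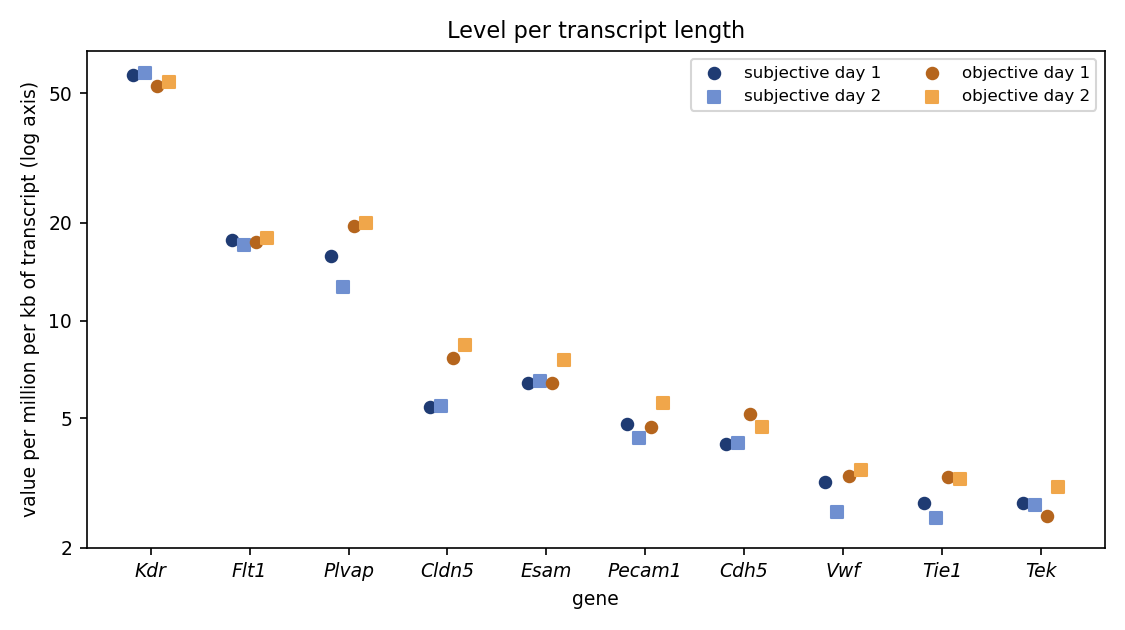
Level of each endothelial gene in the 4 samples, scaled to the sample total and per kilobase of the longest transcript on a log axis, with the genes ordered by their mean and each point 1 pooled sample. Kdr lies near 55.4, Flt1 and Plvap near 17, and the other 7 genes between 2.48 and 8.44.

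Further differences were taken between genes within each sample, 6 in all with that of Plvap and Cldn5, and the pairs were chosen with the values known. Relative to Cdh5, Kdr stood at 4.34 and 4.35 on the log2 scale in subjective day and at 3.93 and 4.09 in objective day. Cldn5 relative to Cdh5 stood at -1.11 in both subjective day samples and at -0.92 and -0.65 in objective day. The difference Tie1 minus Tek was -0.14 and -0.26 for subjective day and 0.26 and -0.054 for objective day. In these 3 pairs, in Flt1 minus Kdr and narrowly in Plvap minus Cdh5, the conditions did not overlap (exact permutation p = 0.333 each, the smallest possible, and 0.4 after adjustment over the 6).

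The wider endothelial list held 26 further genes, all tested. Of these, 1 rose and 0 fell, while 19 had a log2 fold change above 0, where 52.6% of all genes did. The median log2 fold change was 0.23, with 0.15 after removal of the GC trend and 0.12 without subjective day replicate 2. The conditions did not overlap in 18 of the 26, with objective day the higher in 15 and the lower in 3, beside 27.9% and 28.2% of all tested genes. At an unadjusted p under 0.05 there were 6 of the 26, beside 25.4% of all genes. The gene that rose was Egfl7, which encodes a matrix protein that endothelial cells secrete: it was at 314 in both subjective day samples and at 452 and 470 in objective day, with a log2 fold change of 0.55 (SE 0.092, adjusted p = 0.014). The Egfl7 call was lost without objective day replicate 1 (adjusted p = 0.0585), without replicate 2 (adjusted p = 0.0925), with the GC trend removed (0.43, adjusted p = 0.0872) and with a single variance prior (adjusted p = 0.126). S1pr1, a sphingosine phosphate receptor that stabilises endothelial junctions, and Ptprb, the phosphatase that opposes Tie2, had the highest values of the list before any correction for length, with log2 fold changes of -0.061 (adjusted p = 0.635) and 0.0046 (adjusted p = 0.983).

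Among the 6 endothelial transcription factors of that list, 0 passed the test, with 1 at an unadjusted p under 0.05, and 4 had a log2 fold change above 0. The SOX factors of vessel development, Sox7, Sox17 and Sox18, had log2 fold changes of 0.39, 0.38 and 0.39, with adjusted p-values of 0.248, 0.238 and 0.0747. With the GC trend removed their log2 fold changes were 0.32, 0.29 and 0.25 (adjusted p = 0.491, 0.522 and 0.356). Each was higher in objective day without overlap between the conditions, as were 27.9% of all tested genes. Sox18, for example, was at 221 and 217 in subjective day and at 299 and 277 in objective day. Of the ETS factors, Fli1 had a log2 fold change of 0.25 (adjusted p = 0.38) and Erg of -0.077 (adjusted p = 0.835). Tal1 had the lowest estimate, -0.31 (adjusted p = 0.543), at values between 20.8 and 27.7.

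In the VEGF and angiopoietin pathway, 1 of 16 genes rose and 0 fell, with a median log2 fold change of 0.057. That median was 0.019 with the GC trend removed and ran from 0.0023, without objective day replicate 1, to 0.10, without subjective day replicate 1. The gene that rose was Vegfa, which encodes the ligand of Kdr and Flt1, and it was at 4934 and 4777 in subjective day and at 5810 and 5798 in objective day. The log2 fold change was 0.26 (SE 0.058, adjusted p = 0.0375), in the direction opposite to the estimate for Kdr. That call was lost in the absence of subjective day replicate 2 (adjusted p = 0.0822), objective day replicate 1 (adjusted p = 0.246) or objective day replicate 2 (adjusted p = 0.22), with the GC trend removed (0.20, adjusted p = 0.134) and with a single variance prior (adjusted p = 0.182). Vegfb, a ligand of Flt1, was at 2289 and 2109 in subjective day and at 2575 and 2479 in objective day, and its log2 fold change was 0.20 (adjusted p = 0.114), or 0.046 (adjusted p = 0.762) with the GC trend removed. The Tie2 ligand genes did not pass: Angpt1, the activating ligand made by mural cells, had a log2 fold change of -0.41 (adjusted p = 0.155), which was 0.012 with the GC trend removed, and Angpt2, the context-dependent antagonist, had 0.053 (adjusted p = 0.819). Ptpn11, the SHP2 phosphatase downstream of these receptors and the gene of this list with the highest value before correction for length, had a log2 fold change of 0.037 (adjusted p = 0.756).

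The list for the vascular barrier and its Norrin pathway, in which Norrin from Müller cells acts on the endothelial receptor Frizzled 4, held 18 genes, of which 1 rose and 1 fell. At an unadjusted p under 0.05 there were 7 of 18, beside 25.4% of all genes. Their log2 fold changes went both ways, from -0.64 to 0.43, with 6 genes higher and 4 lower without overlap, beside 27.9% and 28.2% of all genes. The median of -0.028 turned to 0.032 with the GC trend removed, to 0.017 without subjective day replicate 2 and to 0.0076 without objective day replicate 2. The gene that rose was Slc7a5, the large neutral amino acid transporter of barrier endothelium and other cells, at 2427 and 2362 in subjective day and at 3291 and 3167 in objective day (log2 fold change 0.43, SE 0.059, adjusted p = 0.00763). It passed the test with each sample left out in turn, and with the GC trend removed it was 0.31 (adjusted p = 0.0521), and with a single variance prior its adjusted p was 0.13. Abcg2, an efflux pump of barrier vessels, fell from 392 and 388 to 289 and 294 (log2 fold change -0.42, SE 0.095, adjusted p = 0.0394). The Abcg2 transcript has a GC content of 39.2%, and with the GC trend removed its log2 fold change was 0.0051 (adjusted p = 0.989). Without any one of the 4 samples its adjusted p lay between 0.0537 and 0.208. The genes of this list with the highest values were Ctnnb1, the beta-catenin gene, whose log2 fold change was -0.013 (adjusted p = 0.929), and the glucose transporter gene Slc2a1, with 0.18 (adjusted p = 0.142), or 0.073 with the GC trend removed. Among the Norrin genes, Tspan12, a coreceptor, was at 215 and 293 in subjective day and at 159 and 162 in objective day, a log2 fold change of -0.64 (SE 0.17, adjusted p = 0.058) that was -0.29 (adjusted p = 0.455) after removal of the GC trend. The coreceptor gene Lrp5 was at 888 and 917 in subjective day and at 1159 and 1053 in objective day, a log2 fold change of 0.29 (SE 0.077, adjusted p = 0.0618) that was 0.18 (adjusted p = 0.351) after that removal. Neither passed the test, and both were without overlap between the conditions. Norrin itself, Ndp, had a log2 fold change of -0.11 (adjusted p = 0.692), and its receptor gene Fzd4 of -0.056 (adjusted p = 0.73).

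**Figure D5:**
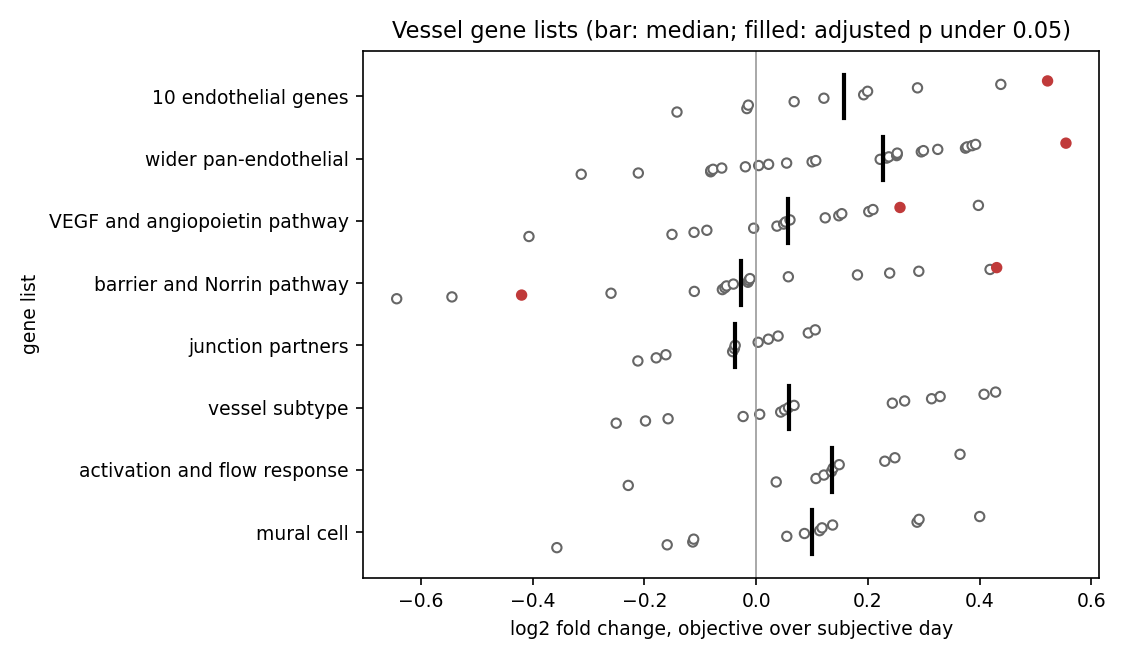
Log2 fold change, objective day over subjective day, of each tested gene in the vessel gene lists (1 point per gene), with a bar at the median of each list and filled points for an adjusted p under 0.05. The medians run from -0.037 for the junction partners to 0.23 for the wider endothelial list.

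Genes of vessel subtypes, of junction complexes and of endothelial activation did not pass the test. Of the 15 genes of arteries, veins, choriocapillaris and tip cells, 0 were called (4 at an unadjusted p under 0.05). Their median log2 fold change was 0.058, or 0.035 with the GC trend removed, and ran from 0.066 to 0.13 with each sample left out. Jag1, a Notch ligand of arteries and other cells, had a log2 fold change of 0.044 (adjusted p = 0.722). The venular chemokine receptor gene Ackr1 was at -0.023 (adjusted p = 0.918). Car4, a carbonic anhydrase gene of the choriocapillaris, was at 43.9 and 37.8 in subjective day and at 54.0 and 44.9 in objective day. Of 11 junction partner genes 0 were called, with 1 at an unadjusted p under 0.05. Their median of -0.037 turned to 0.046 without subjective day replicate 1 and to 0.0086 without objective day replicate 2. Of 10 tested genes of endothelial activation and flow response 0 were called, also with 1 at an unadjusted p under 0.05, and the median of 0.14 was 0.050 without subjective day replicate 1 and 0.21 without subjective day replicate 2. Mural cells, the pericytes and smooth muscle that wrap vessels, gave 0 calls among 12 genes (4 at an unadjusted p under 0.05). Their median was 0.10, ran from 0.041 to 0.15 with each sample left out, and turned to -0.022 with the GC trend removed. Those with the highest values were Rgs5, a pericyte gene, whose log2 fold change was -0.16 (adjusted p = 0.239), and Des, with 0.087 (adjusted p = 0.563), which skeletal muscle also expresses. With the GC trend removed both turned, to 0.16 for Rgs5 and -0.038 for Des.

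Other cells in the pools that share genes with endothelium, or that are carried in the vessels, were measured beside these values. Platelets express Vwf, Pecam1 and Esam, and 0 of 4 tested platelet genes were called (1 at an unadjusted p under 0.05), with a summed value of 718 to 727 for subjective day and 764 to 834 for objective day. Red blood cell genes were higher in objective day, with 3 of 5 tested genes called and a summed value of 3060 and 3172 in subjective day against 4307 and 4583 in objective day, and the counts of near-identical globin copies are uncertain. The number called was 1 without objective day replicate 1 or replicate 2, and 1 with the GC trend removed. Leukocyte genes gave 0 calls among 6 (3 at an unadjusted p under 0.05), with sums of 2148 to 2516 for subjective day and 2391 to 2413 for objective day. Ocular surface epithelium genes fell in 3 of 4 tested, with sums of 9885 and 10295 for subjective day and 2798 and 5129 for objective day. Pigment cell genes, shared by choroidal melanocytes and pigment epithelium, gave 0 calls among 5 (2 at an unadjusted p under 0.05) and a median log2 fold change of 0.28. With the GC trend removed the median was 0.50 with 1 gene called, and with each sample left out it ran from 0.093, without subjective day replicate 2, to 0.42, with 0 to 3 genes called. Their sums of 13657 to 15089 in subjective day lay below 15334 to 18846 in objective day. Of the remaining lists, 1 of 6 fibroblast and sclera genes and 1 of 4 tested pigment epithelium genes fell, and 0 of 2 lymphatic, 0 of 6 skeletal muscle and 0 of 5 rod genes were called, with 0, 0 and 1 of these at an unadjusted p under 0.05. With each sample left out, the median log2 fold change ran from -0.17 to 0.26 for fibroblast and sclera, from -0.18 to 0.043 for pigment epithelium and from -0.13 to 0.035 for muscle genes, taking both signs in each. It ran from 0.12 to 0.28 for rod genes and from -0.069 to -0.034 for lymphatic genes, the latter turning to 0.047 with the GC trend removed. The fibroblast and pigment epithelium calls were both lost without objective day replicate 2 and with the GC trend removed, and 4 fibroblast genes were called without subjective day replicate 1. No gene of the platelet, red blood cell, leukocyte, ocular surface or pigment cell lists was at 0 in any sample. The part of these cells, and of the amount of choroid in each pool, in the endothelial values was not tested.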

How the data were processed

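Polyadenylated RNA from 4 pooled samples was sequenced by the authors as single 50-base reads on 1 lane. Per the study's methods and the submitters' processing notes, reads were aligned with TopHat2 2.0.9 and Bowtie2 2.1.0 to Ensembl release 72 and counted with HTSeq. The filter, normalization and strand setting are not given in the sources used here. What the authors deposited is a per-gene signal, that is, counts brought to the same library size. Within a tolerance of 0.1, a single step gave whole reads for 43.8% to 99.7% of low values per sample, so reads were not recovered and no count test was run. The deposited fold changes, mean expression and p-values of the authors' own comparison were not used.

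Genes that reached 10 in 2 or more samples were compared on log2(value + 1) by limma 3.58.1 (R 4.3.3), whose variance prior was allowed to vary with mean level, with Benjamini-Hochberg adjustment at 0.05. Transcript GC content and length came from GENCODE M21 (GRCm38) and were known for 98.6% of tested genes; the GC trend was a local regression with a span of 0.3. None of the 10 genes shares exonic bases with another annotated gene. On simulated data for 17640 genes with a dispersion of 0.01, 78.5% of 200 genes changed 2-fold were recovered with the correct sign (96.5% of the 141 with a mean of at least 100), with 0 false calls. The simulated counts had no GC trend and no library-size adjustment, and their changes were larger than that of any of the 10 genes. They check the procedure and cannot give the rate of false or missed calls in these data. Replicates differed by more than sampling noise (median squared difference 1.85 and 1.16 times the sampling variance, against 0.455 for a single library deposited as a pair), and the study calls them biological. The genes and lists were chosen with earlier results of these data known. Named from each list were its called genes and, for the vessel lists, the 2 with the highest values, not corrected for length; other genes were added after their values were seen to complete a group, such as the transcription factors, VEGF and angiopoietin ligands, Norrin genes and Car4. Figures were drawn with matplotlib 3.10.9.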

Additional observations from a re-analysis of the deposited data

How the results depend on the processing

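Among all genes, 1514 were called; the count was 3613 with the replicate number as a block, 188 with the GC trend removed, 2595 at a threshold of 0.1, 0 with a single variance prior (3586 at an unadjusted p under 0.05) and 664 to 2557 with each sample left out. Of the 10 endothelial genes 1 was called; the count was 2 after median-ratio scaling and at a threshold of 0.1, 3 with the replicate block, and 0 with a single variance prior, with the GC trend removed or with both the block and the GC trend removed (3 at an unadjusted p under 0.05 in each of these 3), and 0 to 3 with each sample left out. It was 0 without objective day replicate 1 or replicate 2 and 3 without subjective day replicate 1. Their median log2 fold change of 0.16 became 0.075 with the GC trend removed, with or without the block, and ran from 0.056 (without subjective day replicate 2) to 0.20 with each sample left out. Plvap minus Cldn5 turned from -0.084 to 0.32 against the mean of 4 barrier genes (Cldn5, Mfsd2a, Slco1c1 and Abcb1a), and ran from -0.25 to 0.083 with each sample left out.

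With the GC trend removed, with or without the block, Esam turned to -0.036 and Tek to 0.026, and Abcg2 turned to 0.0051. With each sample left out, Esam ran from -0.018 to 0.15, Flt1 from -0.046 to 0.019 and Tek from -0.13 to 0.095, while Pecam1 ran from 0.032 without objective day replicate 2 to 0.21 without objective day replicate 1, and Cdh5 from 0.092 without objective day replicate 1 to 0.29 without objective day replicate 2. The cause of these changes was not tested.

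Replicate numbers in the labels are not said to mark a shared batch, and samples of the same number deviated together with a correlation of 0.32 across genes. With that number as a replicate block, Cldn5 (adjusted p = 0.00863), Plvap (0.00789) and Tie1 (0.0486) passed the test. With the block and the GC trend removed Cldn5 was at 0.0508 and Plvap at 0.0502. Under that setting Egfl7 (0.0270), Vegfa (0.0335) and Slc7a5 (0.00993) passed, and Abcg2 (0.983) did not. Among all genes tested, 1087 were called with the block and the GC trend removed, beside 188 with the trend removed and no block. The block called 6 of 18 barrier and Norrin, 5 of 12 mural and 4 of 26 wider endothelial genes, beside 3613 of all 17784 genes tested. It also called 2 of 16 VEGF and angiopoietin, 1 of 15 vessel subtype, 1 of 11 junction and 1 of 10 activation genes. Among the genes called were Vegfb (adjusted p = 0.0273), Tspan12 (0.0167) and Lrp5 (0.0237), which did not pass without the block. With 2 samples a condition, the number of samples limits what can be detected, and the adjusted values do not give the depth. Count tests on recovered reads were not run. Without subjective day replicate 1, the median log2 fold change was 0.21 for the wider endothelial and 0.10 for the VEGF and angiopoietin list. With all samples these medians were 0.23 and 0.057.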
